A study of Homo sapiens with 15 samples.

Results

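Metallothioneins are small cysteine-rich proteins of the cytosol and nucleus that bind zinc and copper, and also toxic metals such as cadmium. The metallothioneins MT1E, MT1F, MT1G, MT1M, MT1X and MT2A were examined here together with SLC30A1, also called ZnT1, which moves zinc out of the cell across the plasma membrane, and MTF1, the zinc-sensing transcription factor that activates their genes. These 8 genes were taken by symbol from a table of 61248 loci, and all 8 were found. They were picked with measured values of these libraries in view, and which values were used is not recorded. Their levels and changes in every group are therefore given as descriptions, without a test.

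RNA was measured in 15 libraries of NCI-H1975, an established line of human non-small cell lung cancer whose growth depends on a mutated EGFR. There were 5 groups of 3 libraries, and nothing but the agent is recorded to differ between them. The almonertinib cells received a drug that inhibits the EGFR kinase, and the EGF cells received the ligand of EGFR. The siEGFR cells received a small interfering RNA against EGFR, and the siNC cells a negative-control siRNA. The control cells are described only as control. Doses, times, culture media and transfection of the control are not stated. Whether the 3 libraries of a group came from separate cultures is not stated either. A p-value here therefore weighs a group difference only against the spread between libraries, and that spread may be technical. In the main fit the spread is pooled over all 15 libraries. The siEGFR libraries were set against siNC, and the almonertinib, EGF and siNC libraries against control. Almonertinib, EGF and siNC thus share the 3 control libraries, and siNC also serves as the baseline of siEGFR.

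In bulk RNA a change in all cells and a change in some of them cannot be told apart. Levels are FPKM, reads scaled to the length of the gene and to the depth of the library. Read totals ran from 18009903 to 34908302 per library. EGFR, the target of the siRNA, was at 29.9, 28.6 and 28.9 FPKM in siEGFR, against 49.4, 49.4 and 49.8 FPKM in siNC. This was a log2 change of -0.75 ± 0.11 (SE, limma, adjusted p = 0.00165). In siNC itself EGFR was higher than in control (1.00 ± 0.11, limma, adjusted p = 4.9e-06), where it was at 28.0, 22.3 and 22.8 FPKM. All 8 markers of lung adenocarcinoma epithelium reached 1 FPKM, with summed levels of 928 to 1158 FPKM over the 15 libraries. Of 6 leukocyte markers only CD14 reached 1 FPKM, and PTPRC, CD3E and LYZ stayed at or below 0.062 FPKM. Of 6 fibroblast markers COL1A1, COL1A2 and PDGFRB reached 1 FPKM, while DCN and LUM stayed at or below 0.0717 FPKM. Control 1 had the lowest mean correlation with the other libraries of its group, 0.978, against 0.981 to 0.994 in the others, and almonertinib 3 the lowest of its own group, 0.981.

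When free zinc rises, MTF1 moves to the nucleus and binds metal response elements, short DNA motifs near the start of metallothionein genes and of SLC30A1. The same promoters can also respond to glucocorticoids, oxidants and other stress signals. In metal-replete cells the metallothioneins store zinc and SLC30A1 lowers its level by export. Most human metallothionein genes stand in a cluster on chromosome 16, where the 6 studied here lie, while SLC30A1 and MTF1 lie on chromosome 1.

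The promoters were searched for the motif that MTF1 binds. RefSeq promoters were available for MT2A, MT1X, SLC30A1 and MTF1, that is for 4 of the 8 genes, while MT1E, MT1F, MT1G and MT1M had no entry and were not searched. The 250 bases before the start were searched on both strands for the core of the metal response element, spelled TGCACNC or TGCGCNC, whose matches are in capitals. Coordinates are those of GRCh38.p14, and sequences run 5′ to 3′ on the strand of the gene.
MT2A, chr16:56608334-56608583, plus strand: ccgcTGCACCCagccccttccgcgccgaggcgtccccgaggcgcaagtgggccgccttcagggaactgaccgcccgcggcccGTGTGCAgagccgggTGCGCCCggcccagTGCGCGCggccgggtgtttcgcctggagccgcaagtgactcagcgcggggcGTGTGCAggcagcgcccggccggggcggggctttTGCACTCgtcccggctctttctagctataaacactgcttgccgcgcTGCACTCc
MT1X, chr16:56682220-56682469, plus strand: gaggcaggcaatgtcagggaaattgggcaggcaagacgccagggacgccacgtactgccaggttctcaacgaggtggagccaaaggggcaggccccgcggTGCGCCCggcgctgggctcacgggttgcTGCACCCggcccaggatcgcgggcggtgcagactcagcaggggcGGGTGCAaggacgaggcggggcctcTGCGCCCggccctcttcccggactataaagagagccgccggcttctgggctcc
SLC30A1, chr1:211579162-211579411, minus strand: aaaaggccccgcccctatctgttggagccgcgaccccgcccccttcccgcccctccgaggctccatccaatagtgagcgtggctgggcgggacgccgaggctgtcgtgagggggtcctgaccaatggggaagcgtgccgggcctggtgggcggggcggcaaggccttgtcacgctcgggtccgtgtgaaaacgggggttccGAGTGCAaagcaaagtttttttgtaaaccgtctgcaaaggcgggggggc

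The MT2A promoter held 7 cores, at positions -246, -168, -153, -139, -88, -54 and -8 from the start. The MT1X promoter held 4, at -150, -122, -78 and -53. The SLC30A1 promoter held 1, at -49, and the MTF1 promoter held 0. Over 34943 promoters of the same length, 24.8% held at least 1 core, 0.369% at least 4 and 0.12% at least 5. MT2A also carried the AP-1 motif TGACTCA at -104, which 4.22% of promoters hold, and a TATA box, spelled TATAAA, at -29. MT1X carried a TATA box at -30 and no AP-1 motif. At least 1 TATA box of this spelling stood in 6.82% of promoters. No match overlapped another kind of match. These matches describe letters and not occupied sites.

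The genes also share coding sequence, which bears on how far reads can be told apart. The coding sequences of MT1E, MT1F, MT1M, MT1X and MT2A in GENCODE v29 were each 186 bases long, stop codon included. Identity of these coding sequences over the 10 pairs was 88.7% to 92.5%. The longest identical stretch in a pair ran from 32 to 75 bases, sought over whole transcripts and not only coding sequence. MT1E and MT2A, the most abundant members, differ at 14 of their bases, shown in capitals.
MT1E: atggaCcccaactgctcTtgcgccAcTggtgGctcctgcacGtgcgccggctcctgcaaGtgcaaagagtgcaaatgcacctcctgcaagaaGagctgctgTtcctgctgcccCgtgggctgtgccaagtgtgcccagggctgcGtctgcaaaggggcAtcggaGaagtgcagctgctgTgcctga
MT2A: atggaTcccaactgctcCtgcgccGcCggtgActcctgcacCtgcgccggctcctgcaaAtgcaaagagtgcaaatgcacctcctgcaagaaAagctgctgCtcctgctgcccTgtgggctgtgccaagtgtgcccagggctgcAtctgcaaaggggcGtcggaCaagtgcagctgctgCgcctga

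Their longest identical stretch was 32 bases. The 75-base stretch joined MT1E and MT1M. Reads that fall wholly in such stretches cannot be assigned with certainty, and how the authors' counting treated them is not given in the sources used here. For this reason the summed level of the 6 genes is given beside the single ones. Levels of different genes also depend on the length used for each in the deposited values, 914 bases for MT2A and 1052 for MT1E, but 1852 for MT1F and 1727 for MT1X. The principal GENCODE v29 transcripts of MT1F and MT1X have 690 and 450 bases, so the order of the weak members by level depends on that choice.

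Taken over the 6 genes, the metallothionein level was highest with almonertinib and lowest with EGF, and both siRNA groups lay below control. The sum was 793, 875 and 863 FPKM in almonertinib. In EGF it was 252, 299 and 278 FPKM. In siEGFR it was 413, 387 and 361 FPKM and in siNC 368, 389 and 364 FPKM. In control it was 609, 693 and 619 FPKM. The order of the group means was thus almonertinib, control, siEGFR, siNC and EGF, and only siEGFR and siNC, neighbours in that order, overlapped.

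The summed level in almonertinib, 844 ± 44.2 FPKM, was 132% of that in control, 641 ± 46.0 FPKM (SD, n = 3 each). In EGF it was 276 ± 23.2 FPKM, 43.2% of the control level. In siNC it was 374 ± 13.6 FPKM, 58.3% of control. In siEGFR it was 387 ± 26.4 FPKM, 104% of siNC, and the groups overlapped. Without MT2A the sum in EGF was 19.3% of that in control, and the sum in siNC 69.2%. The sum rests on 5868 to 18733 reads per library. The summed level of the 6 fibroblast markers, most of it COL1A2, ran in the same direction in EGF and siNC: it was 359 to 383 FPKM in almonertinib, 193 to 214 FPKM in EGF, 194 to 196 FPKM in siEGFR, 138 to 146 FPKM in siNC and 337 to 353 FPKM in control. The summed leukocyte markers, most of it CD14, were at 35.2 to 41.7 FPKM in almonertinib, 36.0 to 39.1 FPKM in EGF, 4.01 to 5.14 FPKM in siEGFR, 7.45 to 8.09 FPKM in siNC and 30.8 to 40.6 FPKM in control. The part of these markers in the metallothionein levels was not tested, and the defining markers DCN, LUM, PTPRC and CD3E were at or near 0.

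**Figure D1:**
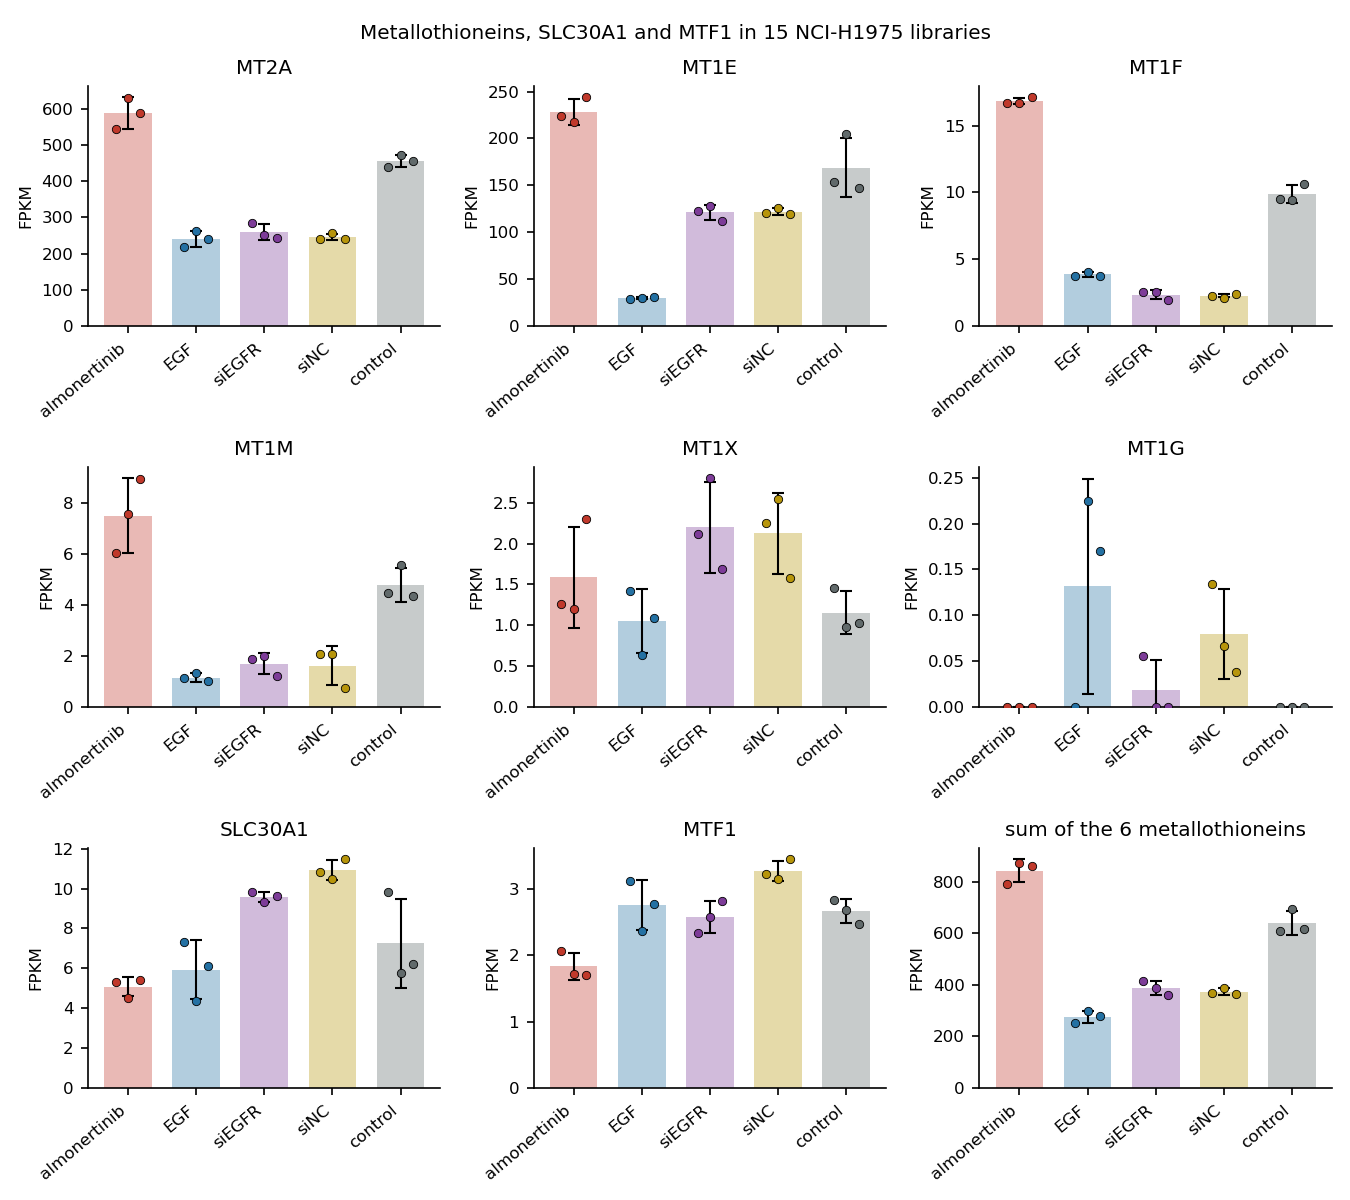
FPKM of each gene and of the metallothionein sum (vertical axes, linear, starting at 0) in the 15 libraries, by group (horizontal axis). Points are libraries, bars are group means and capped lines are the SD. The sum lay between 793 and 875 FPKM with almonertinib, between 252 and 299 FPKM with EGF and between 609 and 693 FPKM in control.

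MT2A, the most widely expressed human metallothionein, carried most of the sum. It was at 545, 632 and 591 FPKM in almonertinib, 218, 263 and 242 FPKM in EGF, 284, 252 and 244 FPKM in siEGFR, 241, 256 and 241 FPKM in siNC, and 440, 472 and 456 FPKM in control. All 3 almonertinib libraries lay above every control library. All EGF, siEGFR and siNC libraries lay below every control library, and these 3 groups overlapped one another. The fitted log2 change of FPKM + 1 was 0.37 ± 0.08 with almonertinib, -0.92 ± 0.08 with EGF and -0.89 ± 0.08 with siNC, each against control (SE). Between siEGFR and siNC it was 0.08 ± 0.08, with a 95% interval of -0.10 to 0.25. Here and for the other genes, a lack of overlap between groups is a description only. How common it was over all loci is not given, so it is not read as unusual for these genes.

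MT1E, next in abundance to MT2A, was lowest in EGF. It was at 224, 218 and 244 FPKM in almonertinib, 28.5, 29.2 and 30.7 FPKM in EGF, 123, 128 and 112 FPKM in siEGFR, 120, 126 and 119 FPKM in siNC, and 154, 205 and 147 FPKM in control. The 3 EGF libraries were the lowest of all 15 and close to one another, and control 2 stood above the other control libraries. The control mean was 5.72 times the EGF mean, and the log2 change was -2.46 ± 0.10. With almonertinib the change was 0.45 ± 0.10, and with siNC -0.45 ± 0.10, both without overlap with control. The level in siEGFR was 99.4% of that in siNC, a log2 change of -0.01 ± 0.10 with a 95% interval of -0.23 to 0.21.

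The balance of the 2 genes therefore differed in EGF from the other groups. The MT2A level was 8.17 ± 0.74 times the MT1E level in EGF (SD, n = 3). It was 2.59 ± 0.28 times in almonertinib, 2.15 ± 0.17 times in siEGFR, 2.02 ± 0.01 times in siNC and 2.75 ± 0.41 times in control. The lowest EGF ratio, 7.63, stood above the highest ratio in any other group, 3.10. MT1E made up 10.7% of the sum in EGF, against 26.2% in control, and MT2A 87.1%, against 71.3%. In siNC the shift was smaller and the other way, with MT1E at 32.6% and MT2A at 65.8% of the sum.

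**Figure D2:**
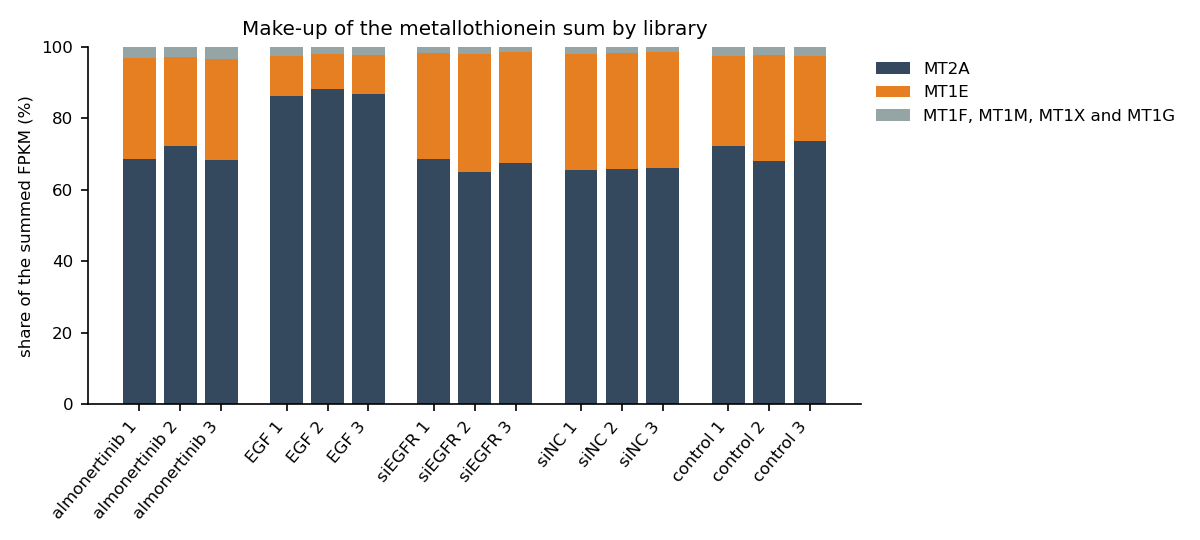
Share of the summed metallothionein FPKM (vertical axis, percent) taken by MT2A, by MT1E and by the other 4 genes in each of the 15 libraries (horizontal axis, by group). MT1E averages 10.7% in EGF and 26.2% in control.

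MT1F and MT1M, further MT1 isoforms, were far weaker, and MT1F was lower in the siRNA groups than in EGF. MT1F was at 16.7, 16.7 and 17.1 FPKM in almonertinib, 3.74, 4.04 and 3.75 FPKM in EGF, 2.52, 2.54 and 1.96 FPKM in siEGFR, 2.26, 2.11 and 2.35 FPKM in siNC, and 9.49, 9.43 and 10.6 FPKM in control. Almonertinib was above control, EGF below control, and both siRNA groups below EGF, each without overlap. The log2 changes were 0.72 ± 0.07 with almonertinib, -1.16 ± 0.07 with EGF, 0.04 ± 0.07 in siEGFR and -1.74 ± 0.07 with siNC. MT1F was at 22.7% of control in siNC and at 39.0% in EGF, while MT1E was at 72.1% and 17.5%.

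MT1M was at 6.02, 7.58 and 8.94 FPKM in almonertinib, 1.12, 1.32 and 0.998 FPKM in EGF, 1.89, 1.98 and 1.22 FPKM in siEGFR, 2.07, 2.06 and 0.729 FPKM in siNC, and 4.45, 5.56 and 4.35 FPKM in control. The almonertinib libraries stood above control, the EGF and siNC libraries below it, and siNC 3 was the lowest of all. These values rest on 13 to 92 reads per library. The log2 changes were 0.55 ± 0.21 with almonertinib, -1.43 ± 0.21 with EGF, 0.08 ± 0.21 in siEGFR and -1.19 ± 0.21 with siNC. Because 1 FPKM is added before the logarithm, these understate the ratios: the EGF mean was 23.9% of the control mean and the siNC mean 33.8%.

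MT1X did not follow the other metallothioneins. It was at 1.26, 1.20 and 2.30 FPKM in almonertinib, 1.41, 0.636 and 1.09 FPKM in EGF, 2.12, 2.80 and 1.69 FPKM in siEGFR, 2.25, 2.55 and 1.58 FPKM in siNC, and 1.45, 0.975 and 1.03 FPKM in control. Almonertinib and EGF overlapped control, and siNC lay above it at 184% of its mean, on 26 to 110 reads per library. The log2 change was 0.53 ± 0.19 with siNC, 0.25 ± 0.19 with almonertinib and -0.08 ± 0.19 with EGF. In siEGFR it was 0.03 ± 0.19 against siNC.

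MT1G was close to absent. It had 0 to 4 reads per library and at most 0.225 FPKM, and it failed the filter of 1 FPKM in at least 3 libraries. It was above 0 in 2 EGF libraries, 1 siEGFR library and all 3 siNC libraries, and it was listed at 0 in all almonertinib and control libraries. A count of 0 allows up to 3 reads, so no difference was detectable at this depth.

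SLC30A1, the zinc exporter, did not follow the metallothioneins either. It was at 5.32, 4.52 and 5.40 FPKM in almonertinib, 7.31, 4.36 and 6.13 FPKM in EGF, 9.84, 9.32 and 9.62 FPKM in siEGFR, 10.8, 10.5 and 11.5 FPKM in siNC, and 9.83, 5.76 and 6.21 FPKM in control. Control 1 stood apart from the other control libraries and reached the level of the siRNA groups. The log2 change was 0.56 ± 0.17 with siNC, -0.41 ± 0.17 with almonertinib and -0.24 ± 0.17 with EGF. Without control 1 it was 0.77 with siNC, -0.20 with almonertinib and -0.03 with EGF. The siEGFR libraries all lay below the siNC libraries, with a log2 change of -0.17 ± 0.17 and a 95% interval of -0.54 to 0.20.

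MTF1, the regulator, was weakly expressed. It was at 2.07, 1.72 and 1.71 FPKM in almonertinib, 3.12, 2.38 and 2.77 FPKM in EGF, 2.33, 2.58 and 2.82 FPKM in siEGFR, 3.22, 3.15 and 3.45 FPKM in siNC, and 2.84, 2.68 and 2.47 FPKM in control. Almonertinib lay below control and siNC above it without overlap, and EGF overlapped it. The log2 change was -0.37 ± 0.08 with almonertinib, 0.03 ± 0.08 with EGF and 0.22 ± 0.08 with siNC. In siEGFR it was -0.26 ± 0.08 against siNC, again without overlap. In almonertinib the MTF1 mean was thus 68.9% of the control mean, while the metallothionein sum was 132% of it.

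**Figure D3:**
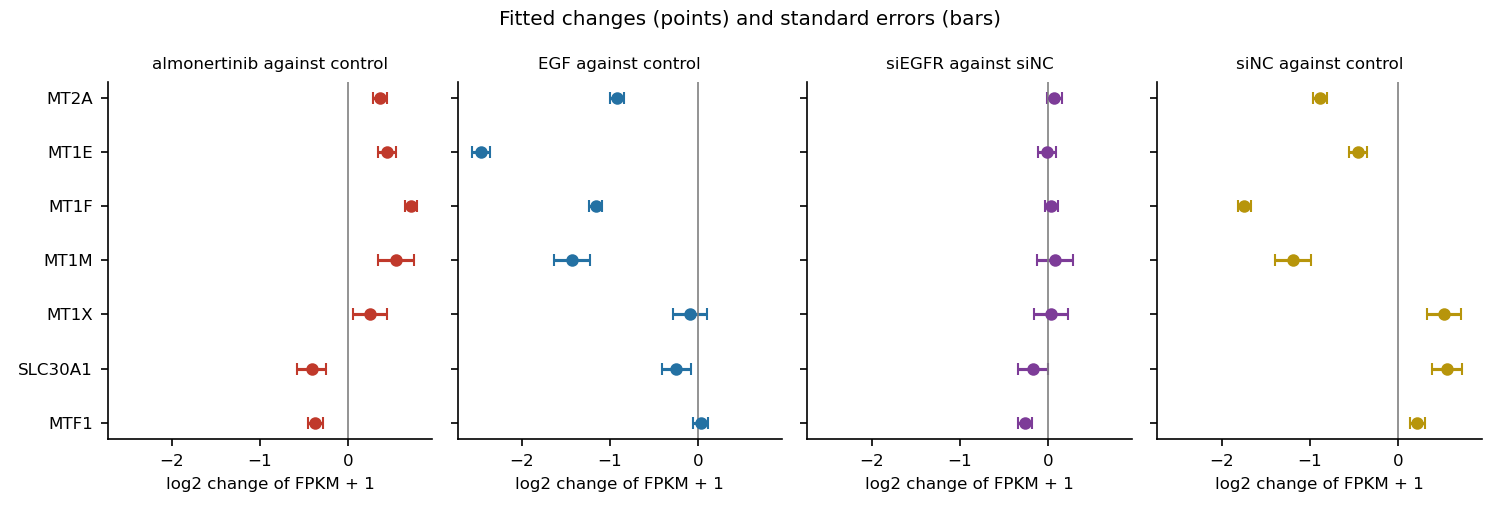
Fitted change of each gene in log2(FPKM + 1) (horizontal axis) in the 4 comparisons (panels), with points for the estimate and bars for its standard error. MT1E lies farthest from 0 with EGF at -2.46, and MT1F with siNC at -1.74. In siEGFR against siNC the points lie between -0.26 and 0.08.

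Counts of members past the threshold, an adjusted p under 0.05, are set here beside the share of all 14999 loci tested, and nothing is read from them since the genes were picked with such values known. Of the 8 genes 7 passed the filter. With almonertinib MT1E, MT1F and MT2A were past it upward and MTF1 downward, 4 of 7, where 30.1% of all loci were past it, 12.1% upward and 18% downward. Of those loci 40.2% were higher, but 22.0% with TPM scaling and 53.5% with median-ratio scaling. No member changed sign under either scaling. With EGF it was 4 of 7, MT1E, MT1F, MT1M and MT2A, all downward, where 49.3% of all loci were past it, 22% upward and 27.3% downward. In siEGFR against siNC 0 of 7 passed, where 5.46% of all loci did, 2.27% upward and 3.19% downward. At an unadjusted p under 0.05 limma gave 1 there, MTF1 lower, and limma-voom called 0. For siNC against control all 7 passed, MT1X, SLC30A1 and MTF1 upward and the other 4 downward, where 66% of all loci did, 34.4% upward and 31.6% downward. The median log2 change over the 7 genes was 0.37 with almonertinib, -0.92 with EGF, 0.03 in siEGFR and -0.45 with siNC. Over all loci tested it was -0.06, -0.04, 0.01 and 0.03 in the same comparisons.

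Across the 15 libraries the sum moved with MT2A (Pearson r of log2(FPKM + 1) 0.97), MT1M (0.96), MT1F (0.87) and MT1E (0.86). It did not move with MT1X (-0.05), and it ran against SLC30A1 (-0.41) and MTF1 (-0.70). SLC30A1 and MTF1 had an r of 0.73 with each other. The points are libraries of 5 groups, so these values mainly describe group means, and MT2A is itself most of the sum.

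The genes whose pattern was most like the sum were sought among 6660 named loci with a mean of at least 5 FPKM. The closest were ACSF2, an acyl-CoA synthetase family member (r = 0.991), LLGL2, a cell polarity protein (0.983), ZNF581, a zinc finger protein (0.982), SNHG8, a noncoding snoRNA host gene (0.981), and CIRBP, a cold-inducible RNA-binding protein (0.981). ACSF2 was at 11.27, 11.97 and 11.65 FPKM in almonertinib, 3.77, 3.81 and 3.98 FPKM in EGF, 4.98, 4.97 and 4.78 FPKM in siEGFR, 4.83, 5.43 and 4.83 FPKM in siNC, and 8.43, 9.57 and 8.94 FPKM in control. It shared with the sum the order of almonertinib above control and EGF at the bottom. That order largely follows from choosing it by likeness to the sum over these same libraries. LLGL2 averaged 28.5 FPKM in almonertinib, 2.79 FPKM in EGF, 4.30 FPKM in siEGFR, 4.91 FPKM in siNC and 18.2 FPKM in control.

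Other loci of the metallothionein family were also followed, and counts over so few of them say little beside the shares of all loci given below. The gene lists used from here on were also chosen with earlier results of these data known, and most genes named from them by smallest p. The limma p-values of list genes are thus descriptions and not tests of genes chosen beforehand. Of 12 further loci listed, MT1A, MT1L and MT1DP passed the filter, and the other 9 stayed below 1 FPKM in every library. In this list 1 locus rose and 0 fell with almonertinib, 1 rose and 1 fell with EGF, and 0 rose and 2 fell with siNC. Of all loci 30.1%, 49.3% and 66% were past the threshold there. In siEGFR 0 passed in limma and in limma-voom, and 1 had an unadjusted p under 0.05. The median log2 change of the 3 loci was 0.29 with almonertinib, 0.20 with EGF, 0.32 in siEGFR and -0.75 with siNC. MT1A, a functional metallothionein, was at 12.2, 17.4 and 14.3 FPKM in EGF, against 9.69, 12.5 and 10.2 FPKM in control. It rose by a log2 change of 0.40 ± 0.12 (limma, adjusted p = 0.0151), with 1 EGF library within the control range. The call was lost without control 1 (adjusted p = 0.0542, or 0.0561 also without almonertinib 3), without control 3 (adjusted p = 0.052), without EGF 2 (adjusted p = 0.0694) and in the fit of the 6 libraries alone (adjusted p = 0.0697), and over 16 alternatives the adjusted p ran from 0.00419 to 0.0697. The direction is opposite to that of MT1E. The coding sequences of MT1A and MT1E are 94.6% identical, and whether shared reads bear on either level was not tested.

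MT1L, a family member annotated as a pseudogene, was at 28.3, 36.1 and 31.3 FPKM in EGF and at 25.6, 31.9 and 25.3 FPKM in control, which did not pass (0.20 ± 0.11, limma, adjusted p = 0.152). It fell to 15.1, 17.0 and 15.7 FPKM in siNC (-0.75 ± 0.11, limma, adjusted p = 6.37e-05). The longest identical stretch between transcripts of MT1L and MT1E, not limited to coding sequence, is 43 bases. MT1DP, a pseudogene, averaged 5.16 FPKM in almonertinib, 1.64 FPKM in EGF, 0.676 FPKM in siNC and 2.81 FPKM in control, on 3 to 24 reads. It rose with almonertinib (0.69 ± 0.18, limma, adjusted p = 0.0138) and fell with EGF (-0.54 ± 0.18, limma, adjusted p = 0.0261) and siNC (-1.18 ± 0.18, limma, adjusted p = 7.82e-05). The almonertinib call was lost without control 1, also together with almonertinib 3, and in the fit of the 6 libraries (adjusted p of 0.00626 to 0.122 over 15 alternatives). The EGF call was lost without EGF 2, without EGF 3, without control 2, in the fit of the 6 libraries, with no filter and in limma-voom (adjusted p of 0.0113 to 0.112 over 15 alternatives). MT2P1, a pseudogene of MT2A, was at 80.6, 81.9 and 68.1 FPKM in almonertinib, 22.2, 32.8 and 26.3 FPKM in EGF, 25.0, 26.4 and 22.8 FPKM in siEGFR, 35.5, 28.4 and 31.3 FPKM in siNC and 43.5, 64.1 and 64.6 FPKM in control. It was in no list and was picked after its values were seen. Adding all other metallothionein loci to the sum gave 47.6% of control in EGF, in place of 43.2%.

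Of 10 other zinc exporters listed, SLC30A5, SLC30A6, SLC30A7 and SLC30A9 passed the filter, and 0 of 4 passed the test with almonertinib, with EGF and in siEGFR. At an unadjusted p under 0.05 limma gave 2 lower with almonertinib and 0 in the other 2 comparisons, and limma-voom on reads recovered from the FPKM called the same numbers. With siNC 2 of 4 rose. Over all loci 30.1% were past the threshold with almonertinib, 49.3% with EGF, 5.46% in siEGFR and 66% with siNC, so that counts over 4 genes say little beside these shares. SLC30A6, which forms a zinc transporter with SLC30A5 in the secretory pathway, was at 7.54, 7.40 and 8.25 FPKM in siNC, against 7.18, 4.14 and 5.01 FPKM in control (0.46 ± 0.16, limma, adjusted p = 0.0196). SLC30A9 averaged 12.6 FPKM in siNC and 9.38 FPKM in control (0.41 ± 0.15, limma, adjusted p = 0.0297). In both genes control 1 was the highest control library, as for SLC30A1. Without control 1 and almonertinib 3 all 4 exporters were higher in siNC, 2 were higher with EGF and 1 was lower with almonertinib. The siNC call of SLC30A6 was lost without control 2, without control 3 or without siNC 3, with adjusted p of 0.000578 to 0.0949 over 16 alternatives. That of SLC30A9 was lost without any one of control 2, control 3, siNC 1 and siNC 3 and with no filter, with adjusted p of 0.000787 to 0.118.

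The zinc importers of the SLC39 family bring zinc into the cytosol from outside or from vesicles. Of 14 listed 11 were tested. With almonertinib 0 rose and 4 fell, with EGF 4 rose and 2 fell, and with siNC 4 rose and 4 fell, where 30.1%, 49.3% and 66% of all loci were past the threshold. In siEGFR 0 passed in limma and in limma-voom, and 2 had an unadjusted p under 0.05, but a fit of the 6 siRNA libraries alone gave 5 higher and 1 lower. Their median log2 change was -0.08 with almonertinib, 0.07 with EGF, 0.12 in siEGFR and 0.01 with siNC. SLC39A14, which carries zinc and also iron, was at 8.80, 7.96 and 8.78 FPKM in almonertinib, against 13.6, 11.5 and 11.6 FPKM in control (-0.47 ± 0.07, limma, adjusted p = 0.000275). It rose in EGF, where it was at 15.8, 13.9 and 14.7 FPKM (0.26 ± 0.07, limma, adjusted p = 0.00502). Its EGF call was lost in the fit of the 6 libraries (adjusted p = 0.0557, the highest over 16 alternatives, from 0.000171). SLC39A14 was thus below control with almonertinib and above it with EGF, the reverse of the metallothionein sum.

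SLC39A8, a zinc and manganese importer, was at 3.19, 2.23 and 3.04 FPKM in EGF, against 1.74, 1.17 and 1.28 FPKM in control (0.67 ± 0.11, limma, adjusted p = 0.000179). In siNC it rose to 5.002, 4.668 and 5.09 FPKM (1.31 ± 0.11, limma, adjusted p = 2e-07). SLC39A3 rose with EGF, at 9.64 ± 0.99 FPKM against 6.46 ± 0.97 FPKM in control (SD, n = 3 each; 0.52 ± 0.10, limma, adjusted p = 0.00105). SLC39A13 fell in siNC to 10.4, 9.98 and 9.07 FPKM, against 18.9, 23.4 and 22.5 FPKM in control (-1.06 ± 0.09, limma, adjusted p = 2.82e-07). Without control 1 and almonertinib 3 the importers that passed were 2 lower with almonertinib, 5 higher and 2 lower with EGF, and 5 higher and 2 lower with siNC.

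Copper, the other physiological metal of metallothioneins, was followed through 12 genes, of which 9 were tested. With almonertinib 1 rose and 4 fell, with EGF 3 rose and 2 fell, and with siNC 4 rose and 3 fell, where 30.1%, 49.3% and 66% of all loci were past the threshold. In siEGFR 0 passed in limma and in limma-voom, and 1 had an unadjusted p under 0.05. Without control 1 and almonertinib 3, 1 rose and 2 fell with almonertinib, 3 rose and 2 fell with EGF, and 5 rose and 2 fell with siNC. The median log2 change was 0.04 with almonertinib, 0.05 with EGF, 0.0039 in siEGFR and 0.20 with siNC. CCS, the chaperone that loads copper into superoxide dismutase, was at 110, 124 and 103 FPKM in almonertinib, 49.2, 61.7 and 51.7 FPKM in EGF, 44.1, 45.5 and 41.0 FPKM in siNC and 70.8, 94.6 and 87.8 FPKM in control. It rose with almonertinib (0.41 ± 0.11, limma, adjusted p = 0.0134) and fell with EGF (-0.63 ± 0.11, limma, adjusted p = 0.000347) and with siNC (-0.93 ± 0.11, limma, adjusted p = 5.97e-06). The almonertinib call was lost without control 1 (adjusted p = 0.0522), without almonertinib 2 (adjusted p = 0.0628) and in the fit of the 6 libraries (adjusted p = 0.111, the highest over 16 alternatives, from 0.00339). COX17, which hands copper to mitochondrial cytochrome oxidase, rose with EGF (0.50 ± 0.10, limma, adjusted p = 0.000999) and siNC (0.83 ± 0.10, limma, adjusted p = 7.56e-06).

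**Figure D4:**
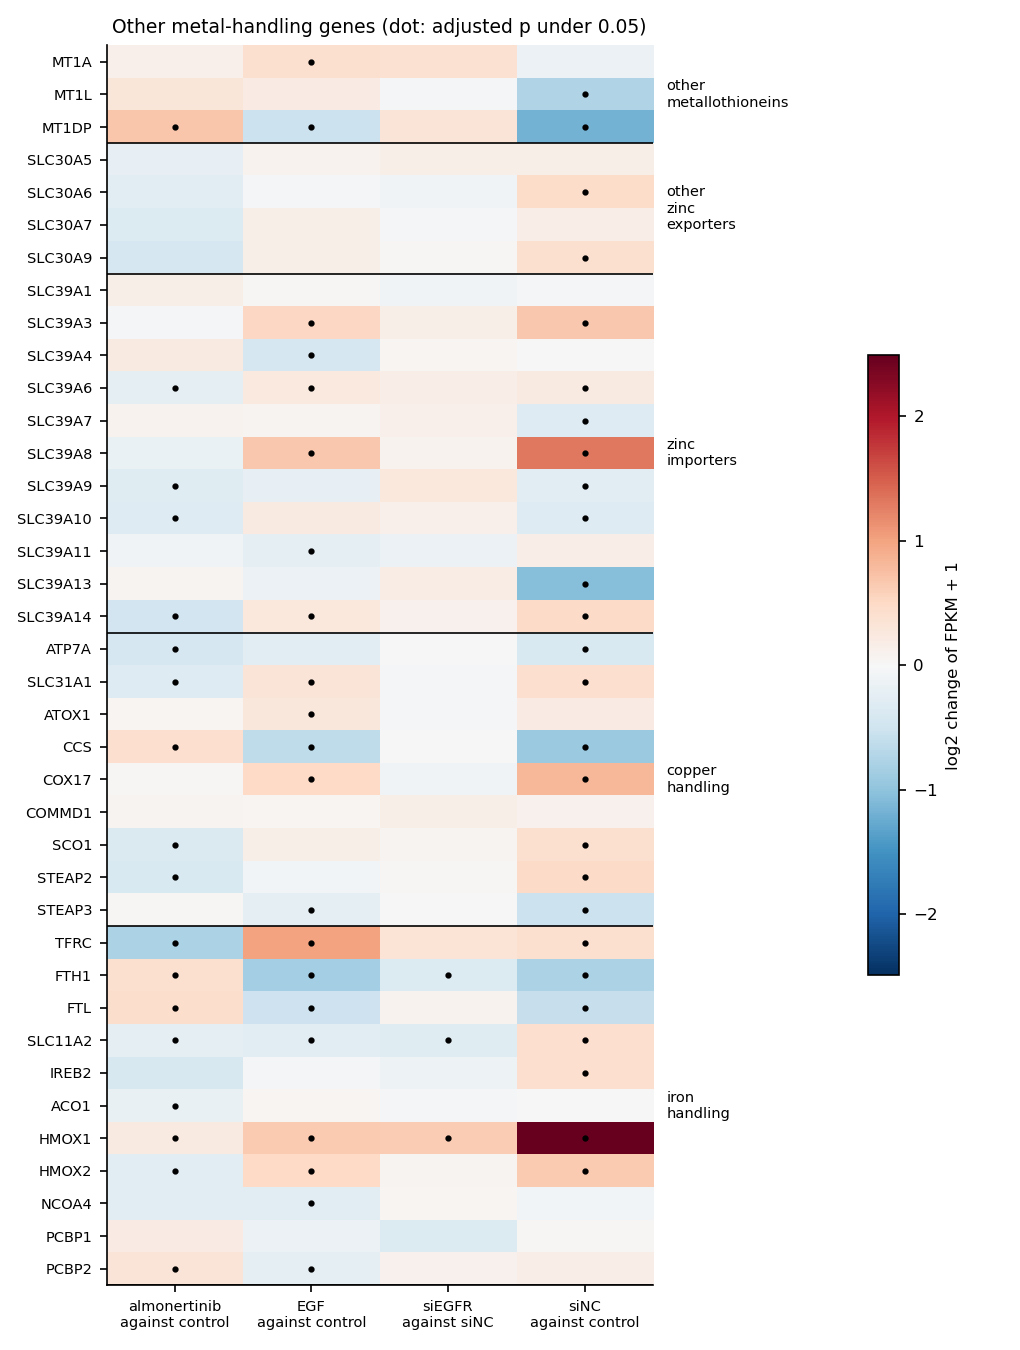
Log2 change of FPKM + 1 (colour) for other tested metallothionein, zinc, copper and iron genes (rows, grouped by list) in the 4 comparisons (columns), with a dot where the adjusted p was under 0.05. SLC39A14 is below 0 with almonertinib and above 0 with EGF, and no zinc or copper gene has a dot in siEGFR against siNC.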

How the data were processed

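The authors deposited one table of FPKM values for 15 libraries, unrounded. Per the submitters' processing notes the build was hg19 and the tools were HISAT2, featureCounts and DESeq2; their versions and roles are not given in the sources used here. Per the labels' protocols, poly(A) RNA from TRIzol extracts was sequenced in paired ends. FPKM are not counts, so no count model was the main test. The values are whole multiples of a step per read: 99.998% of positive values were whole within 0.01 reads, which gave the read totals and lengths. Symbols were matched by Ensembl ID for 60463 of 61248 loci.

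Loci with at least 1 FPKM in at least 3 libraries, 14999 in all, were fitted as log2(FPKM + 1) with limma 3.58.1 in R 4.3.3, with variance trend, robust moderation, 1 coefficient per group and 10 residual degrees of freedom. Contrasts were two-sided and adjusted by Benjamini-Hochberg over all loci. The step was tested on simulated data. The members and all gene lists were chosen with earlier results of these data known. Besides the 8 members and EGFR, the text names up to 4 tested genes per list with the smallest p over the 4 comparisons, and the 5 loci most like the sum, unless it says otherwise. Alternatives changed the pseudocount, filter, scaling, libraries, moderation, block, threshold, sum or test, or left out each library. The fit without control 1 and almonertinib 3 was chosen after seeing the data. Python 3.11.15 made tables and figures. Depth is stated with the levels, and no batch is labelled.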

Additional observations from a re-analysis of the deposited data

How the results depend on the processing

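Of 461 alternative values for single members, 436 moved by less than the spread between libraries, 25 moved by more, and a sign changed only when libraries were left out and only for changes within that spread, in siEGFR or EGF. Genes past the threshold with almonertinib numbered 4517, but 857 in a fit of the 6 libraries alone, 2266 at an adjusted p under 0.01, and 2853 to 5611 leaving out 1 library, the lowest without almonertinib 2. With EGF they numbered 7396, but 4627 under a filter of 5 FPKM, and 6264 to 7564 leaving out 1 library. In siEGFR against siNC they numbered 819, but 544 under that filter, 3080 in the fit of the 6 libraries, 390 at an adjusted p under 0.01, and 441 to 525 leaving out 1 library. With siNC they numbered 9899, but 5974 under that filter, and 8968 to 10150 leaving out 1 library. Stricter filters test fewer genes. The other causes were not tested.

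The log2 ratio of the metallothionein sum was 0.40 with almonertinib (0.49 after median-ratio scaling, 0.36 to 0.46 leaving out 1 library). With EGF it was -1.21 (-1.07 over every metallothionein locus, -2.37 without MT2A, -1.27 to -1.15 leaving out 1 library). In siEGFR it was 0.05 (-0.0057 without MT2A, 0.00020 to 0.099 leaving out 1 library), and with siNC -0.78 (-0.53 without MT2A, -0.81 to -0.72 leaving out 1 library). Without control 1 and almonertinib 3, a fit chosen after seeing the data, the counts were 3940 with almonertinib, 8462 with EGF and 10738 with siNC.

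Libraries of 1 replicate number varied together in some pairs and not in others. The correlations of their deviations ran from -0.169 to 0.539 between almonertinib and control, from -0.124 to 0.597 between EGF and control, from -0.007 to 0.033 between siEGFR and siNC, and from -0.144 to 0.216 between siNC and control. No comparison had every pair above 0.1, so the number was not taken as a pairing. With the replicate number as a block the counts were 5614, 8040, 1036 and 10352 for almonertinib, EGF, siEGFR and siNC. Of the genes named above, the block added calls for SLC30A7 (adjusted p = 0.0124, and 0.0124 to 0.223 over the alternatives) and SLC30A9 (adjusted p = 0.0247, and 0.0138 to 0.225), lower with almonertinib, and for MT1L (adjusted p = 0.0188, and 0.0178 to 0.231), higher there.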

Other observations

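TFRC and FTH1, genes of iron uptake and storage, moved opposite ways with almonertinib and EGF. TFRC, the transferrin receptor that takes up iron, was at 25.9, 20.3 and 25.0 FPKM in almonertinib, 92.1, 74.5 and 85.4 FPKM in EGF, and 49.0, 36.7 and 40.1 FPKM in control. It fell with almonertinib (-0.79 ± 0.11, limma, adjusted p = 0.000242) and rose with EGF (0.99 ± 0.11, limma, adjusted p = 7.47e-06). FTH1, the heavy chain of the iron store ferritin, was at 1386, 1506 and 1469 FPKM in almonertinib, 578, 640 and 638 FPKM in EGF, and 1130, 1110 and 1083 FPKM in control. It rose with almonertinib (0.39 ± 0.07, limma, adjusted p = 0.00105) and fell with EGF (-0.84 ± 0.07, limma, adjusted p = 3.92e-07), as the metallothionein sum was higher and lower there. FTH1 also fell with siNC (-0.79 ± 0.07, limma, adjusted p = 2.76e-07). In siEGFR, where the sum overlapped siNC, FTH1 was lower (-0.34 ± 0.07, limma, adjusted p = 0.00831), a call lost without siEGFR 2 or siEGFR 3. TFRC rose with siNC (0.40 ± 0.11) and did not pass in siEGFR (0.33 ± 0.11, limma, adjusted p = 0.113). Of 11 tested iron genes 4 rose and 4 fell with almonertinib, 3 rose and 5 fell with EGF, 1 rose and 2 fell in siEGFR, and 5 rose and 2 fell with siNC, with median log2 changes of -0.19, -0.14, 0.05 and 0.16. Over all loci 30.1%, 49.3%, 5.46% and 66% were past the threshold in the same comparisons. After median-ratio scaling 4 iron genes rose and 1 fell with almonertinib, in the fit of the 6 libraries 1 rose and 1 fell, and without control 1 and almonertinib 3, 3 rose and 2 fell.

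Genes of the heat shock and oxidative response, which heavy metals induce as they do metallothioneins, did not follow the sum by their medians. Their median log2 change was -0.12 with almonertinib, 0.37 with EGF, -0.02 in siEGFR and 0.61 with siNC. Of 13 tested, 1 rose and 4 fell with almonertinib, 6 rose and 2 fell with EGF, 1 rose and 0 fell in siEGFR, and 10 rose and 1 fell with siNC. Over all loci 30.1% were past the threshold with almonertinib, 49.3% with EGF, 5.46% in siEGFR and 66% with siNC. HMOX1, the heme-degrading enzyme, which is also in the iron list, was at 94.2, 90.0 and 92.7 FPKM in siEGFR, against 57.9, 59.7 and 59.1 FPKM in siNC (0.64 ± 0.08, limma, adjusted p = 0.000259). In control it was at 8.69, 11.3 and 9.20 FPKM, so that siNC was higher by 2.49 ± 0.08 (limma, adjusted p = 2.28e-11). HMOX1 also rose with EGF (0.66 ± 0.08, limma, adjusted p = 1.18e-05). With almonertinib it rose, as the sum did (0.23 ± 0.08, limma, adjusted p = 0.0382). That almonertinib call was lost in several alternatives (adjusted p of 0.00153 to 0.226 over 16). Of 10 tested glucocorticoid-induced genes 3 rose and 3 fell with almonertinib, 4 rose and 3 fell with EGF, 1 rose and 2 fell in siEGFR, and 4 rose and 6 fell with siNC. These counts stand beside the same shares of all loci. The median log2 change of these genes was 0.0069 with almonertinib, 0.20 with EGF, -0.16 in siEGFR and -0.46 with siNC. TSC22D3, which glucocorticoids induce, averaged 23.3 FPKM in almonertinib, 5.42 FPKM in siNC and 15.2 FPKM in control. It rose with almonertinib (0.58 ± 0.06, limma, adjusted p = 2.93e-05) and fell with siNC (-1.34 ± 0.06). Its EGF change did not pass (-0.15 ± 0.06, limma, adjusted p = 0.0598). CRISPLD2 and DUSP1 of the same list ran opposite to the sum. They changed by -0.73 ± 0.06 and -0.41 ± 0.06 with almonertinib, 0.59 ± 0.06 and 0.50 ± 0.06 with EGF, and 1.24 ± 0.06 and 1.31 ± 0.06 with siNC. PER1 of this list, outside the genes named by smallest p, ran with the sum. It changed by 0.40 ± 0.08 with almonertinib, -0.33 ± 0.08 with EGF and -0.97 ± 0.08 with siNC. KLF9 did not pass with almonertinib (-0.15 ± 0.10) and fell with EGF (-0.43 ± 0.10) and siNC (-1.25 ± 0.10).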
